A study of Mus musculus with 6 samples.

Results

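The genes described here are those of glycolysis, which turns glucose into pyruvate and lactate, and of the response to low oxygen. They were chosen by name, 24 symbols for glucose and lactate transporters and glycolytic enzymes and 16 for the hypoxia-inducible factor (HIF) pathway. All 40 symbols were found in the deposited table, in 41 of its 54532 genes, since Aldoa names a pair of neighbouring gene models. The RNA-seq libraries came from newborn mouse epidermis, 3 of them with the genotype label Paxbp1 knockout and 3 with the label wild type. Subcutaneous fat and dermis were taken off, and the dermis that remained was peeled away after an overnight stay in Dispase II. The labels do not name the strain, the deleted part of the gene, a Cre driver, or whether a library came from 1 animal, and p-values therefore rest on the variation among 3 libraries a group, which may be technical.

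Glycolysis takes glucose in through SLC2A carriers, traps it with hexokinase, commits it with phosphofructokinase and ends with pyruvate, which lactate dehydrogenase converts to lactate for export through SLC16A carriers. HIF is a transcription factor whose alpha subunits, encoded by Hif1a and Epas1, are marked for destruction by the EGLN prolyl hydroxylases while oxygen is plentiful. When oxygen is scarce HIF binds a short DNA core, ACGTG or GCGTG, near many glycolytic genes and near genes of blood vessel growth, acid balance, mitophagy and collagen folding. The outer epidermis is normally poor in oxygen, and keratinocytes make much of their energy by glycolysis.

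The libraries had 16315317 to 17816327 counts. The labelled tissue was checked against defining markers, whose levels in counts scaled to library size (CPM) were summed over each list. Basal keratinocyte markers summed to 1908 to 4946 CPM in the knockout libraries and 19571 to 21565 CPM in the wild type, and suprabasal markers to 3221 to 8071 CPM in the knockout libraries and 66981 to 121074 CPM in the wild type. All 8 basal and all 8 suprabasal markers were lower in the knockout libraries. All 8 macrophage markers and 7 of 8 fibroblast markers were higher there, with 1 fibroblast marker lower. The macrophage list summed to 9089 to 17170 CPM in the knockout libraries and 131 to 146 CPM in the wild type, and the fibroblast list to 3620 to 9340 CPM in the knockout libraries and 452 to 458 CPM in the wild type. Of 9 neutrophil, 7 endothelial and 7 red blood cell markers 6, 4 and 7 passed the filter on low counts, and those were higher in the knockout libraries. Ly6g, Retnlg and Emcn had no count in the wild type. In bulk tissue, fewer cells of a type and less RNA per cell cannot be told apart. The part of these cell types in the values below was not tested, except where a marker level is given beside them. Paxbp1 itself had 134, 73.6 and 69.7 CPM in the libraries labelled knockout, against 110, 70.9 and 77.8 CPM in the wild type (edgeR adjusted p = 0.783). With the deleted part unknown, this total cannot test the labels, and every direction below is that of the libraries labelled knockout.

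**Figure D1:**
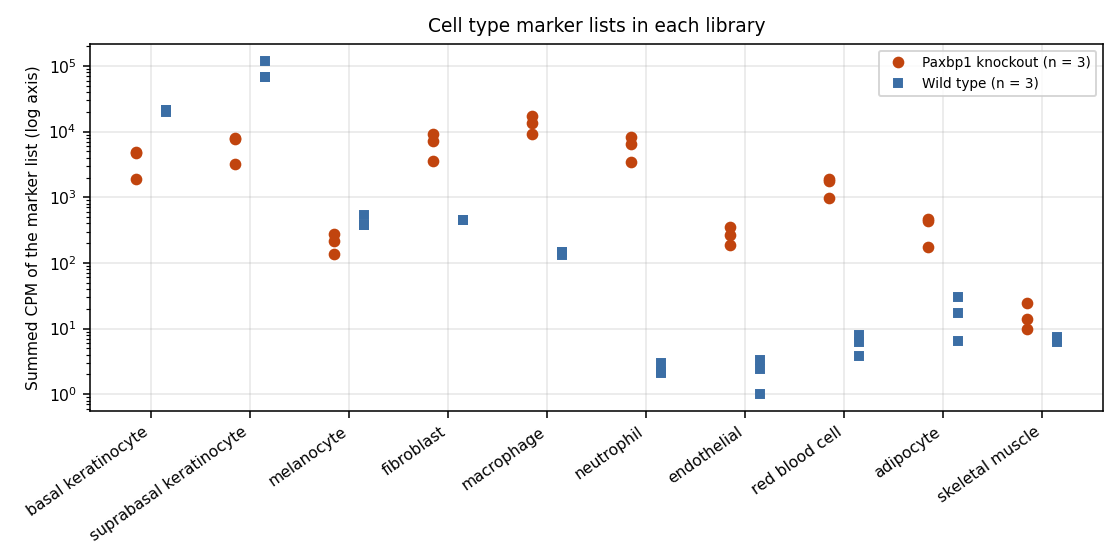
Summed CPM of 10 cell type marker lists in each library, on a log axis, with knockout libraries as circles and wild type libraries as squares. Both keratinocyte lists and the melanocyte list sit lower in all 3 knockout libraries, and the other lists sit higher.

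More genes of both groups were higher than lower in the knockout libraries, and some enzyme families held members of both kinds. Of the 25 glycolysis gene models, all of which passed the filter on low counts, 12 were higher and 5 lower in the knockout libraries (edgeR quasi-likelihood test, adjusted p under 0.05), which is 48.0% and 20% of them. Of the 16 HIF pathway genes, all of which were tested, 10 were higher and 1 lower, or 62.5% and 6.25%. Over all 16471 genes tested 53.8% were called, 28.7% higher and 25.1% lower. The share of lower glycolysis genes is thus near the background. The groups did not overlap for 18 of the 25 glycolysis models and 12 of the 16 HIF pathway genes, against 62.3% of all genes tested (31.9% with the knockout libraries above and 30.4% below). The median log2 fold change, knockout minus wild type, was 0.95 for glycolysis and 0.84 for the HIF pathway, beside -0.029 for all genes. Leaving out wild type replicate 3 left 7 higher HIF pathway genes, and 2 were lower without knockout replicate 2.

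**Figure D2:**
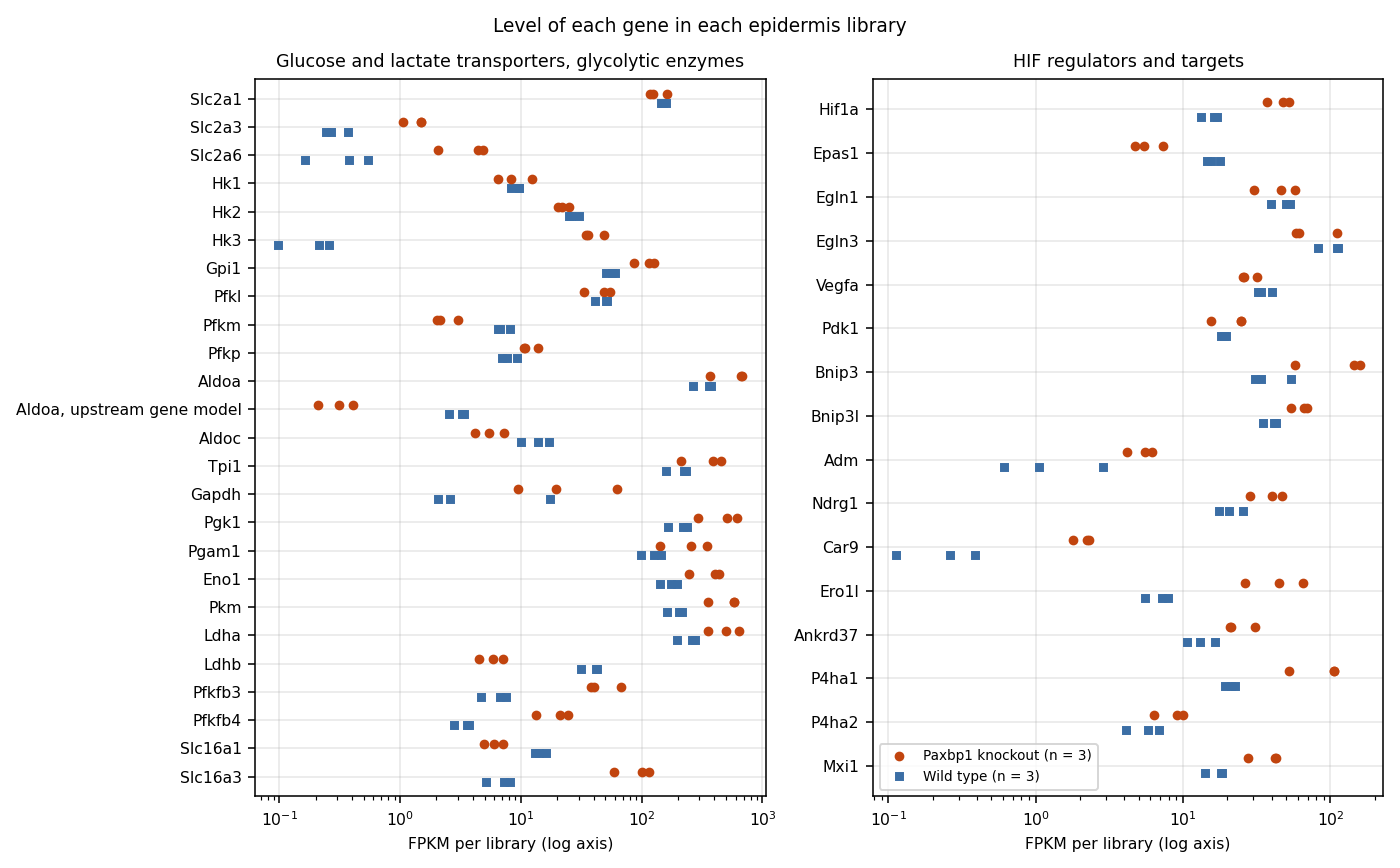
FPKM of each gene in each library on a log axis, with knockout libraries as circles above and wild type libraries as squares below. Aldoa (main model), Tpi1, Pgk1, Pgam1, Eno1, Pkm and Ldha lie between 141 and 681 FPKM in the knockout libraries, and the groups stand far apart for Hk3.

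The promoters of several genes, some called higher and some called lower, are shown to set the HIF core beside the values that follow. The sequences are RefSeq windows on GRCm38.p6, the same assembly as the mm10 build of the counts, of which the 250 bases before the start are printed from 5′ to 3′. Capitals mark ACGTG or GCGTG on either strand, so that CACGT and CACGC are their reverse complements, and CACGTG holds ACGTG on both strands. Pgk1 and Ldha stand for the abundant enzymes, Slc16a3 and Hk3 for family members that were higher, Bnip3 and Car9 for HIF targets, and Slc16a1 and Ldhb for family members that were lower. The positions, with the strand of the gene, are Pgk1 chrX:106186850-106187099 (plus), Ldha chr7:46845554-46845803 (plus), Slc16a3 chr11:120948817-120949066 (plus), Hk3 chr13:55021386-55021635 (minus). The others are Bnip3 chr7:138909507-138909756 (minus), Car9 chr4:43506776-43507025 (plus), Slc16a1 chr3:104638414-104638663 (plus), Ldhb chr6:142507958-142508207 (minus).
Pgk1: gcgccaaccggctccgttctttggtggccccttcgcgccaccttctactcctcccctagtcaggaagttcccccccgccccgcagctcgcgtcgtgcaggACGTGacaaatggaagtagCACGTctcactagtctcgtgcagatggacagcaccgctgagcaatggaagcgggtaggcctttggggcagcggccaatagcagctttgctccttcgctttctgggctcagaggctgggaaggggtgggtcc
Ldha: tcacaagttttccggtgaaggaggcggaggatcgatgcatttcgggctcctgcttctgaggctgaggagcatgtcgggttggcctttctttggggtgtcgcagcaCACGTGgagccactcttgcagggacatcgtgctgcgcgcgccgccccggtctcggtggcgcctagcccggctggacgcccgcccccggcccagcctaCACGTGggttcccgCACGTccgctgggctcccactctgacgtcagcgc
Slc16a3: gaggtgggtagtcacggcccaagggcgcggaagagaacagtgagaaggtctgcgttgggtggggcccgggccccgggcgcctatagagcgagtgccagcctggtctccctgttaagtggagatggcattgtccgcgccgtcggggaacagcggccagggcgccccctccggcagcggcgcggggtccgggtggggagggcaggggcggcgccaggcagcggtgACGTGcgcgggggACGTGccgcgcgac
Hk3: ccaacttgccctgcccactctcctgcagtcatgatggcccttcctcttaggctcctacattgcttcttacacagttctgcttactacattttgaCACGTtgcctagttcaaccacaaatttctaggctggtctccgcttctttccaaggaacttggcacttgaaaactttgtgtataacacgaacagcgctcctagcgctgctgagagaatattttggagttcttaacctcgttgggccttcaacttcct
Bnip3: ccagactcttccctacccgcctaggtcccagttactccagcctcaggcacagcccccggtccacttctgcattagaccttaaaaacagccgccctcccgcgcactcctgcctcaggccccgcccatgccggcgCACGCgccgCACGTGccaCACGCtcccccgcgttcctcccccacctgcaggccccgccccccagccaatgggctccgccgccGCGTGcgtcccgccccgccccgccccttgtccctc
Car9: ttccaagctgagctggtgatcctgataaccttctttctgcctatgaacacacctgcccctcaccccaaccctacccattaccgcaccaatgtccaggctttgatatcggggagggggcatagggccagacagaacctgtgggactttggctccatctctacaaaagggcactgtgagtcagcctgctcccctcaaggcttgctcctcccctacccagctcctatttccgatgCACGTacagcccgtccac
Slc16a1: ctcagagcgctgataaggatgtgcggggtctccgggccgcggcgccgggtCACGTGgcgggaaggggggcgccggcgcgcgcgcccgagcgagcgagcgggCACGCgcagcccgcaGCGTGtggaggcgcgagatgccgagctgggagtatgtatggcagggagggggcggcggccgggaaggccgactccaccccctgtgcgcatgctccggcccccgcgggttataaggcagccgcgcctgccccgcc
Ldhb: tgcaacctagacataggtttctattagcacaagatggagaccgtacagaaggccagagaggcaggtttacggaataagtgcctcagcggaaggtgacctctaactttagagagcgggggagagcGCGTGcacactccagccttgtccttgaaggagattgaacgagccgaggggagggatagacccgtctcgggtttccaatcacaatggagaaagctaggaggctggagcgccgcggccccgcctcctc

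Of the 40 symbols 36 had a window, Ero1l under its RefSeq symbol Ero1a, and Slc2a3, Epas1, Bnip3l and Ndrg1 had none. ACGTG or GCGTG was found in the 300-base window of 34 of these 36 symbols (94.4%), against 12628 of 27025 symbols in the whole table (46.7%). The symbols without it were Gpi1 and Tpi1. By window the shares were 43 of 52 (82.7%) for these genes and 43.8% for all. Some windows of a symbol overlap, as in Aldoa, Pfkm and Eno1. The whole table was not limited to genes that passed the filter on low counts, as all of these genes did. The letters were present both in genes that were higher, such as Pgk1 with 2 places in its 300-base window and Bnip3 with 5, and in genes that were lower, such as Slc16a1 with 5 and Ldhb with 1, where CACGTG counts as 2 places. A match is a description of the sequence and not a binding site, and several of these genes are textbook HIF targets that were picked for being so.

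Among the glucose carriers the abundant one did not pass the test and the rare ones were higher. Slc2a1, the main glucose carrier of keratinocytes, had 441, 577 and 413 CPM in the knockout libraries, against 553, 516 and 569 CPM in the wild type. The groups overlapped, with knockout replicate 2 the highest of all 6 libraries (log2 fold change -0.20 ± 0.25 SE, edgeR adjusted p = 0.537). Per length it was still one of the most expressed genes here, at 135 ± 24.1 FPKM in the knockout libraries and 152 ± 6.94 FPKM in the wild type (SD, n = 3 each). Slc2a6, a carrier found in lysosomes of macrophages, had 6.68, 14.4 and 15.6 CPM in the knockout libraries, against 1.80, 1.22 and 0.531 CPM in the wild type. Slc2a3, a high-affinity carrier of neurons and white blood cells, had 7.76, 10.9 and 10.8 CPM in the knockout libraries, against 1.86, 1.96 and 2.76 CPM in the wild type. In both genes every knockout library lay above every wild type library, and the log2 fold changes were 3.36 ± 0.48 for Slc2a6 (edgeR adjusted p = 0.000159) and 2.16 ± 0.32 for Slc2a3 (edgeR adjusted p = 0.000202). Even so, Slc2a1 held 96.3 ± 1.35% of the summed FPKM of the 3 carriers in the knockout libraries and 99.6 ± 0.0904% in the wild type.

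The hexokinases changed in make-up through the appearance of Hk3, the hexokinase of white blood cells. Hk3 (chromosome 13, 55005985 to 55021385, minus strand, mm10) had 2283, 2068 and 2888 counts in the knockout libraries, against 18, 6 and 15 counts in the wild type. Its level was 129, 135 and 179 CPM in the knockout libraries and 0.982, 0.367 and 0.796 CPM in the wild type (202-fold, log2 fold change 7.66 ± 0.36, edgeR adjusted p = 1.73e-07). No other gene of this set differed as much. The macrophage list was higher in the same libraries, at 9089 to 17170 CPM, and the neutrophil list at 3404 to 8399 CPM, against 2.07 to 2.95 CPM in the wild type. Hk1, the hexokinase found in most tissues, had 55.6, 71.2 and 105 CPM in the knockout libraries and 74.2, 83.6 and 83.4 CPM in the wild type, with overlapping groups (log2 fold change -0.060 ± 0.25). Hk2, the hexokinase of skin, muscle and fat that HIF can induce, had 151, 132 and 121 CPM in the knockout libraries and 163, 151 and 183 CPM in the wild type. All 3 knockout libraries lay below for Hk2, yet it was not called (log2 fold change -0.30 ± 0.20, edgeR adjusted p = 0.239).

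As a share of the family's summed FPKM, Hk3 made up 55.7 ± 3.78% in the knockout libraries and 0.517 ± 0.227% in the wild type. Hk2 made up 31.9 ± 6.42% in the knockout libraries and 74.2 ± 1.97% in the wild type, and Hk1 12.4 ± 2.69% in the knockout libraries and 25.3 ± 2.17% in the wild type. These shares and those of the other families are descriptions without a test, since 3 against 3 libraries cannot give an exact two-sided permutation p below 0.10.

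**Figure D3:**
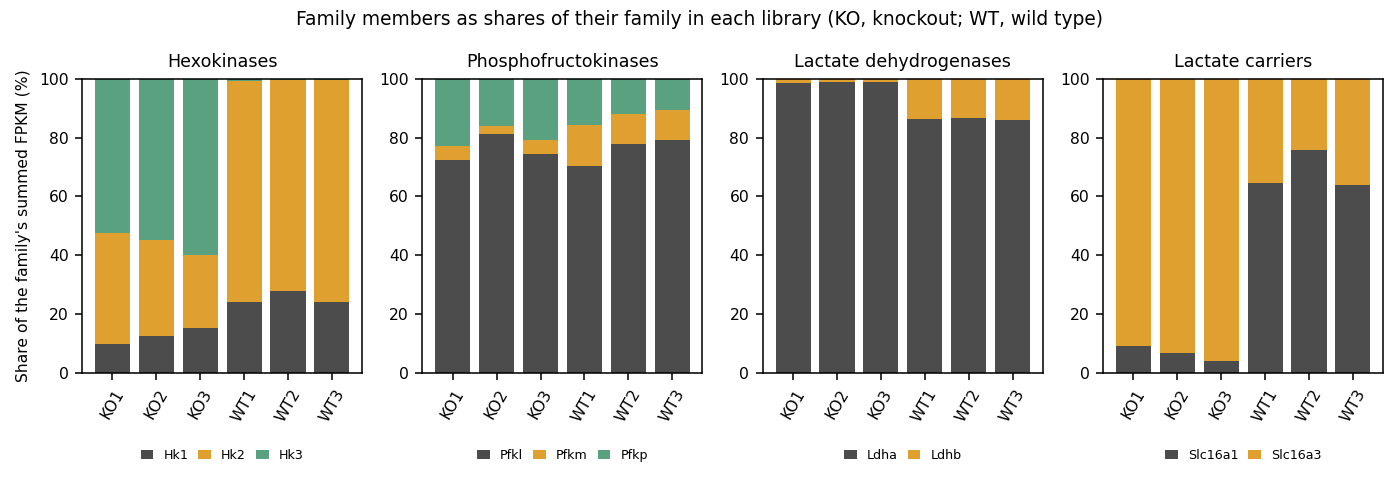
Stacked shares of the summed FPKM of 4 families in each library, with knockout libraries on the left of each panel and wild type libraries on the right. Hk3 takes 52.5% to 59.9% of the hexokinases in the knockout libraries, and Slc16a3 takes 90.9% to 95.9% of the lactate carriers.

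At the phosphofructokinase step, which commits sugar to glycolysis, 1 of the 3 subunit genes, Pfkm, was called. Pfkl, the liver-type subunit gene and the most expressed of the family, had 225, 372 and 327 CPM in the knockout libraries and 287, 340 and 352 CPM in the wild type. The groups overlapped (log2 fold change -0.084 ± 0.26, edgeR adjusted p = 0.805). Pfkm, the muscle-type subunit gene, fell to 7.25, 6.86 and 10.03 CPM in the knockout libraries, against 28.4, 22.6 and 22.1 CPM in the wild type (log2 fold change -1.60 ± 0.25, edgeR adjusted p = 0.000263). Its span overlaps Senp1 on the other strand, which had 2011 counts in the knockout libraries and 2731 in the wild type, and without a stated strand setting reads of both cannot be told apart. Pfkp, the platelet-type subunit gene, had 143, 146 and 185 CPM in the knockout libraries, against 129, 104 and 95.9 CPM in the wild type. All 3 knockout libraries lay above, and it missed the threshold (log2 fold change 0.53 ± 0.22, edgeR adjusted p = 0.0613), but was called under 7 of 16 alternatives, among them the replicate number as a block (adjusted p = 0.0368), DESeq2 (0.0365) and leaving out knockout replicate 1 (0.0343). Pitrm1, which overlaps Pfkp on the other strand, had 1845 counts in the knockout libraries and 2605 in the wild type.

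The regulators of this step rose more than any of the phosphofructokinase genes. Pfkfb3 and Pfkfb4 encode enzymes that make the sugar phosphate which switches phosphofructokinase on. Pfkfb3 had 291, 310 and 506 CPM in the knockout libraries, against 53.0, 35.9 and 58.4 CPM in the wild type (log2 fold change 2.91 ± 0.31, edgeR adjusted p = 1.70e-05). Pfkfb4 had 121, 65.4 and 102 CPM in the knockout libraries, against 18.2, 18.5 and 13.9 CPM in the wild type (log2 fold change 2.51 ± 0.27, edgeR adjusted p = 1.88e-05). Neither gene's groups overlapped, and the highest knockout library was replicate 3 for Pfkfb3 and replicate 1 for Pfkfb4. Both are textbook HIF targets, and activated macrophages also express Pfkfb3.

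Most of the abundant enzymes were higher, by 1.93-fold for Gpi1 to 2.57-fold for Pkm. Pkm, which encodes pyruvate kinase, had 1797, 2965 and 2900 CPM in the knockout libraries, against 843, 1035 and 1105 CPM in the wild type (log2 fold change 1.36 ± 0.32, edgeR adjusted p = 0.00438). It kept its call under all 16 alternatives. Pgk1, the phosphoglycerate kinase gene, had 669, 1402 and 1140 CPM in the knockout libraries, against 388, 543 and 508 CPM in the wild type (log2 fold change 1.16 ± 0.33, edgeR adjusted p = 0.0118), and limma on unfiltered FPKM gave an adjusted p of 0.0520. Gpi1, the glucose phosphate isomerase gene, had 566, 755 and 813 CPM in the knockout libraries, against 339, 368 and 399 CPM in the wild type (log2 fold change 0.95 ± 0.26, edgeR adjusted p = 0.00976). In these 3 genes each knockout library lay above each wild type library, with knockout replicate 1 the lowest of its group.

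The enolase gene Eno1 had 1347, 2376 and 2161 CPM in the knockout libraries, against 793, 1071 and 954 CPM in the wild type (log2 fold change 1.06 ± 0.32, edgeR adjusted p = 0.0166). The call depended on the wild type libraries, with an adjusted p of 0.0597 when replicate 1 was left out and 0.0538 when replicate 3 was. Pgam1, the phosphoglycerate mutase gene, had 261, 477 and 629 CPM in the knockout libraries and 189, 236 and 268 CPM in the wild type. Its groups overlapped, since knockout replicate 1 was below wild type replicate 3 (log2 fold change 0.98 ± 0.33, edgeR adjusted p = 0.0264). The call was lost without knockout replicate 3 (adjusted p = 0.108) and without wild type replicate 1 (0.0846) or 2 (0.0694), and in the 3 limma fits of FPKM (0.0599 to 0.118).

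Aldoa, the main aldolase gene, and Tpi1, the triose phosphate isomerase gene, had the same sign and missed the threshold. Aldoa (ENSMUSG00000030695) had 1080, 2006 and 1921 CPM in the knockout libraries and 806, 1065 and 1113 CPM in the wild type (log2 fold change 0.75 ± 0.33, edgeR adjusted p = 0.0779). Tpi1 had 594, 1258 and 1059 CPM in the knockout libraries and 460, 645 and 630 CPM in the wild type (log2 fold change 0.75 ± 0.33, edgeR adjusted p = 0.0781). In both, knockout replicate 1 fell among the wild type libraries while knockout replicates 2 and 3 lay above all of them. Spsb2, which overlaps Tpi1 on the other strand, had 1416 counts in the knockout libraries and 348 in the wild type. With the replicate block both were called, at adjusted p = 0.0358 for Aldoa and 0.0289 for Tpi1, and without knockout replicate 1 they were at 0.0136 for Aldoa and 0.00961 for Tpi1. DESeq2 called both as well, at adjusted p = 0.0153 for Aldoa and 0.0228 for Tpi1.

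The second gene model named Aldoa (ENSMUSG00000114515, chr7:126800790-126809108, minus strand, mm10) lies just upstream of the main one and went the other way. It had 3, 5 and 4 counts in the knockout libraries, against 50, 45 and 39 counts in the wild type (log2 fold change -3.32 ± 0.53, edgeR adjusted p = 0.000321). Its counts are few, and reads of the 2 models could be split between them. Aldoc, the aldolase gene typical of brain, had 13.8, 18.0 and 23.4 CPM in the knockout libraries, against 34.1, 55.9 and 46.4 CPM in the wild type. No knockout library reached the lowest wild type library (log2 fold change -1.31 ± 0.27, edgeR adjusted p = 0.00166).

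Gapdh, the glyceraldehyde phosphate dehydrogenase gene that is often used as a loading control, had few and scattered counts in both groups. It had 1449, 3979 and 631 counts in the knockout libraries and 1385, 176 and 165 counts in the wild type. Wild type replicate 1 lay inside the range of the knockout libraries, and the gene was not called (log2 fold change 2.001 ± 1.03, edgeR adjusted p = 0.146). Without wild type replicate 1 the log2 fold change was 3.70 and the gene was called (edgeR adjusted p = 0.00163), as it was without both libraries numbered 1 (3.92, adjusted p = 0.00300). Over all 16 alternatives the log2 fold change ran from 0.94 to 3.92. Iffo1, which overlaps Gapdh on the other strand, had 1110 counts in the knockout libraries and 119 in the wild type. Per length Gapdh averaged 30.4 ± 27.9 FPKM in the knockout libraries and 7.40 ± 8.79 FPKM in the wild type. The enzymes of the neighbouring steps had far higher levels, for Tpi1 350 ± 123 FPKM in the knockout libraries and 205 ± 39.1 FPKM in the wild type. Near-identical processed copies of Gapdh lie elsewhere in the mouse genome, and the handling of reads with several matches is not given in the sources used here, so the Gapdh values are uncertain. The same limit applies, to an unknown degree, to Aldoa, Tpi1, Pgk1, Pgam1, Eno1 and Ldha.

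The last step and the export of lactate showed opposite moves within each pair of genes. Ldha, which encodes the subunit of lactate dehydrogenase typical of glycolytic tissue, had 1184, 2131 and 1644 CPM in the knockout libraries, against 679, 925 and 878 CPM in the wild type (log2 fold change 1.00 ± 0.32, edgeR adjusted p = 0.0209). The groups did not overlap, but the call was lost without knockout replicate 2 (adjusted p = 0.0532), or wild type replicate 1 (0.0742), 2 (0.0558) or 3 (0.0558), and in limma on unfiltered FPKM (0.0541). Ldhb, which encodes the subunit typical of heart, fell to 7.08, 11.3 and 9.23 CPM in the knockout libraries, against 51.6, 66.8 and 67.8 CPM in the wild type (log2 fold change -2.75 ± 0.25, edgeR adjusted p = 5.21e-06). Among the 25 glycolysis gene models, the upstream Aldoa model alone had a more negative log2 fold change. Its share of the summed FPKM of the pair was 1.17 ± 0.0697% in the knockout libraries and 13.7 ± 0.405% in the wild type, almost the same in the 3 libraries of each group.

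Slc16a3, the carrier through which glycolytic cells export lactate, had 318, 541 and 604 CPM in the knockout libraries, against 39.9, 27.9 and 43.8 CPM in the wild type (13.1-fold, log2 fold change 3.71 ± 0.33, edgeR adjusted p = 4.52e-06). Slc16a1, the carrier of most tissues, fell to 26.6, 31.8 and 21.6 CPM in the knockout libraries, against 60.3, 72.7 and 64.2 CPM in the wild type (log2 fold change -1.30 ± 0.22, edgeR adjusted p = 0.000434). Neither gene's groups overlapped. Of the summed FPKM of the pair, Slc16a3 held 93.4 ± 2.50% in the knockout libraries and 32.0 ± 6.75% in the wild type, so that the more expressed carrier was a different one in each group. Activated macrophages also express Slc16a3, and beside these values stand the macrophage sums of 9089 to 17170 CPM in the knockout libraries and 131 to 146 CPM in the wild type, and the lower keratinocyte sums given above.

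**Figure D4:**
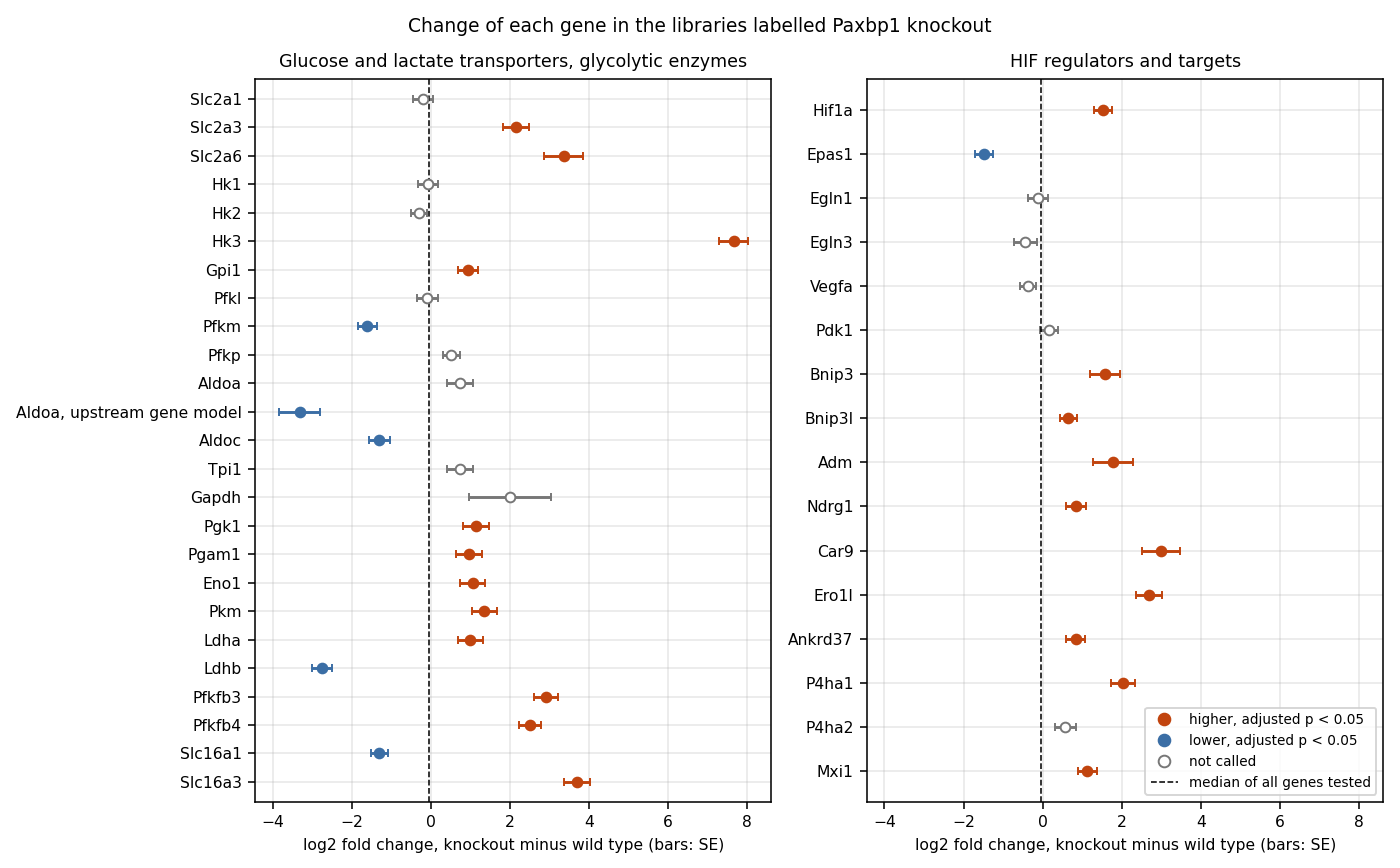
Log2 fold change of each gene, knockout minus wild type, with its SE, filled where the edgeR adjusted p was under 0.05, and the median of all genes tested as a dashed line. Hk3 stands at 7.66 and Slc16a3 at 3.71, while Ldhb at -2.75 and the upstream Aldoa model at -3.32 lie farthest to the left.

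The HIF alpha subunit genes moved in opposite directions. Hif1a (chromosome 12, 73901375 to 73947530, plus strand, mm10), whose product drives the glycolytic targets, had 220, 312 and 278 CPM in the knockout libraries, against 81.3, 96.1 and 102 CPM in the wild type (log2 fold change 1.53 ± 0.23, edgeR adjusted p = 0.000205). Epas1, whose product is best known from blood vessel lining and the kidney, fell to 25.1, 29.2 and 38.5 CPM in the knockout libraries, against 80.5, 95.6 and 83.6 CPM in the wild type (log2 fold change -1.48 ± 0.22, edgeR adjusted p = 0.000213). The groups were apart in both genes, and both calls held under all 16 alternatives. Endothelial markers summed to 184 to 353 CPM in the knockout libraries and 1.01 to 3.27 CPM in the wild type, but most of that sum was Pecam1, which white blood cells also express, at 166, 252 and 334 CPM in the knockout libraries against 1.64, 1.10 and 0.849 CPM in the wild type. The more specific Emcn had 3, 0 and 2 counts in the knockout libraries and none in the wild type. Cdh5, on the same list, had 120, 68 and 165 counts in the knockout libraries, against 1, 0 and 0 in the wild type. For Kdr these counts were 130, 124 and 137 in the knockout libraries, against 12, 3 and 1 in the wild type. Per length Hif1a and Epas1 were about level in the wild type, at 15.4 ± 1.98 and 15.9 ± 1.68 FPKM, whereas in the knockout libraries Hif1a had 45.5 ± 7.80 FPKM and Epas1 5.80 ± 1.34 FPKM. These are levels of mRNA, and HIF alpha is controlled mainly at the protein.

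The hydroxylase genes that mark HIF alpha in the presence of oxygen, themselves HIF targets, were not called. Egln1 had 111, 208 and 165 CPM in the knockout libraries and 149, 182 and 195 CPM in the wild type (log2 fold change -0.12 ± 0.26, edgeR adjusted p = 0.731). Egln3 had 156, 297 and 162 CPM in the knockout libraries and 228, 304 and 299 CPM in the wild type (log2 fold change -0.43 ± 0.29, edgeR adjusted p = 0.233). Knockout replicate 2 stood with the wild type in Egln3, and without that library the gene was called lower (adjusted p = 0.0252).

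Of the 12 genes listed as HIF targets 9 were higher (75%, against 28.7% of all genes tested) and 3 were not called. Egln1 and Egln3 were listed with the regulators and are not among these 12. Vegfa, the growth factor for blood vessels and one of the best known targets, had 137, 113 and 110 CPM in the knockout libraries and 178, 147 and 140 CPM in the wild type. All 3 knockout libraries lay below, though the gene was not called (log2 fold change -0.37 ± 0.21, edgeR adjusted p = 0.156). Pdk1, the kinase gene that holds pyruvate back from mitochondria, had 121, 194 and 190 CPM in the knockout libraries and 147, 155 and 149 CPM in the wild type (log2 fold change 0.16 ± 0.23, edgeR adjusted p = 0.585). P4ha2 was the third, at 39.8, 57.3 and 62.4 CPM in the knockout libraries and 44.6, 36.6 and 26.0 CPM in the wild type (log2 fold change 0.57 ± 0.26, edgeR adjusted p = 0.0837), and it was called without knockout replicate 1 (0.0207).

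Among these 12 genes the largest rises were in Car9, Ero1l and P4ha1, while P4ha2, a relative of P4ha1, was not called. Car9, which encodes a carbonic anhydrase at the cell surface, had 73, 79 and 85 counts in the knockout libraries, against 17, 10 and 5 counts in the wild type (log2 fold change 3.00 ± 0.49, edgeR adjusted p = 0.000367). Its level stayed low, at 2.10 ± 0.279 FPKM in the knockout libraries and 0.254 ± 0.137 FPKM in the wild type, and the overlapping antisense gene Gm12454 had 61 counts in the knockout libraries and 17 in the wild type. Ero1l, an oxidase gene for disulfide bonds in the endoplasmic reticulum, had 141, 241 and 340 CPM in the knockout libraries, against 43.5, 38.5 and 29.8 CPM in the wild type (log2 fold change 2.69 ± 0.33, edgeR adjusted p = 4.70e-05). P4ha1, a catalytic subunit gene of collagen prolyl hydroxylase, had 218, 437 and 430 CPM in the knockout libraries, against 96.1, 80.5 and 88.4 CPM in the wild type (log2 fold change 2.03 ± 0.30, edgeR adjusted p = 0.000172). No group overlapped in these 3 genes. Fibroblasts express P4ha1, and the fibroblast list summed to 3620 to 9340 CPM in the knockout libraries and 452 to 458 CPM in the wild type.

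Adm, the gene of the vessel-widening peptide adrenomedullin, had 9.06, 10.1 and 6.75 CPM in the knockout libraries, against 4.80, 1.71 and 1.01 CPM in the wild type (log2 fold change 1.78 ± 0.50, edgeR adjusted p = 0.0115). The mitophagy receptor gene Bnip3 had 132, 364 and 327 CPM in the knockout libraries, against 73.2, 124 and 78.5 CPM in the wild type (log2 fold change 1.58 ± 0.37, edgeR adjusted p = 0.00422). Knockout replicate 1 was only just above wild type replicate 2 in Bnip3. Its relative Bnip3l had 210, 260 and 267 CPM in the knockout libraries, against 141, 167 and 164 CPM in the wild type (log2 fold change 0.65 ± 0.22, edgeR adjusted p = 0.0266). The Bnip3l call was lost on leaving out any library but knockout replicate 1 (adjusted p = 0.0580 without knockout replicate 2, 0.0695 without 3, and 0.0952, 0.0746 and 0.0688 without wild type replicates 1, 2 and 3) and with no filter on low counts (0.0713).

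Mxi1, a transcriptional repressor gene that opposes Myc, had 156, 241 and 237 CPM in the knockout libraries, against 82.5, 104 and 104 CPM in the wild type (log2 fold change 1.13 ± 0.24, edgeR adjusted p = 0.00218). Ndrg1, a stress gene also linked to differentiation, had 311, 269 and 186 CPM in the knockout libraries, against 121, 169 and 138 CPM in the wild type (log2 fold change 0.84 ± 0.26, edgeR adjusted p = 0.0172). Ndrg1 was highest in knockout replicate 1, and its call was lost on leaving out wild type replicate 1 (adjusted p = 0.0736) or 3 (0.0684) or both libraries numbered 1 (0.114). Ankrd37, a small target gene of little known function, had 32.6, 48.0 and 32.0 CPM in the knockout libraries, against 21.1, 25.5 and 16.7 CPM in the wild type (log2 fold change 0.83 ± 0.25, edgeR adjusted p = 0.0155). It was not called without knockout replicate 2 (adjusted p = 0.0574) or wild type replicate 3 (0.0749), and Ufsp2, which overlaps it on the other strand, had 2541 counts in the knockout libraries and 1467 in the wild type. The groups did not overlap in these 3 genes.

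The order of the knockout replicates was alike in many of the higher genes of this set. Knockout replicate 1 was the lowest of its group in 11 of 12 higher glycolysis genes and in 7 of 10 higher HIF pathway genes. The share of all higher genes with this library lowest was not computed, so this order may not be particular to the set. The same library had the lowest sums of the macrophage (9089 CPM), neutrophil (3404 CPM) and fibroblast (3620 CPM) lists among the knockout libraries. The endothelial, skeletal muscle and melanocyte sums were lowest there too. The red blood cell sums (1922, 1798 and 961 CPM) and adipocyte sums (466, 430 and 173 CPM) of the knockout libraries were instead highest in replicate 1. The basal keratinocyte sums of the knockout libraries were 4946, 4777 and 1908 CPM and the suprabasal sums 7592, 8071 and 3221 CPM, so that replicate 3 was the lowest in both. With 3 libraries the relation between these levels was not tested.

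The wider pathways, here and in the closing section, were read from lists of other genes. Like the members, these lists were chosen with earlier results of these data known, so their shares are descriptions only. Of 51 further HIF targets tested out of 54, 29 were higher and 11 lower (56.9% and 21.6%, against 28.7% and 25.1% of all genes). The share of lower ones is thus near that of all genes. Their median log2 fold change was 1.03 for the 51 targets, beside -0.029 for all genes. Kdr is both on this list and on the endothelial marker list. The macrophage, fibroblast and endothelial sums were also higher in the knockout libraries, and the part of those cell types in these shares was not tested. The lipase inhibitor gene Angptl4 had 45.2, 66.6 and 72.8 CPM in the knockout libraries, against 0.600, 0.183 and 0.212 CPM in the wild type (log2 fold change 7.49 ± 0.42, edgeR adjusted p = 2.53e-07). In the other direction, the nuclear receptor gene Rora had 30.1, 18.3 and 16.8 CPM in the knockout libraries, against 137, 188 and 156 CPM in the wild type, and Ddit4, an inhibitor gene of mTOR signalling that low oxygen induces, 60.1, 86.8 and 64.8 CPM in the knockout libraries against 244, 220 and 274 CPM in the wild type. Their log2 fold changes were -2.88 ± 0.28 and -1.80 ± 0.23 (edgeR adjusted p = 8.56e-06 and 6.82e-05).

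Of 15 further regulators of HIF 4 were higher and 3 lower, shares near those of all genes (28.7% and 25.1%). The higher count was 1 without wild type replicate 1, and 2 without knockout replicate 3 or wild type replicates 2 or 3. Os9, whose product binds HIF alpha and its hydroxylases, rose (1.22 ± 0.26), as did Vhl (0.87 ± 0.26), the recognition subunit of the ligase that destroys HIF alpha. Vhl was not called without knockout replicate 2 (edgeR adjusted p = 0.0539) or wild type replicate 1 (0.0622). Arnt2, a partner subunit gene, fell (-1.83 ± 0.43), as did Hif1an (-0.84 ± 0.22), whose product is an oxygen-dependent inhibitor of HIF. The more expressed partner gene Arnt was called higher, just under the threshold (0.53 ± 0.21, edgeR adjusted p = 0.0492). Arnt had 10.9 ± 1.72 FPKM in the knockout libraries and 7.39 ± 0.819 FPKM in the wild type. Arnt2 had 0.220 ± 0.0529 FPKM in the knockout libraries and 0.770 ± 0.365 FPKM in the wild type.

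Of 29 further genes of sugar transport and glycolysis tested out of 34, 10 were higher and 5 lower (34.5% and 17.2%, against 28.7% and 25.1% of all genes), with a median log2 fold change of 0.16. The lower count was 3 on leaving out any 1 wild type library. The urate and sugar carrier gene Slc2a9 had 30.4, 33.6 and 42.9 CPM in the knockout libraries, against 6.93, 6.48 and 6.05 CPM in the wild type (log2 fold change 2.46 ± 0.23, edgeR adjusted p = 7.71e-06). Slc2a10, a carrier gene with 130 counts in the knockout libraries and 1 in the wild type, had a ratio of 142 with a 95% counting interval from 25.0 to 5640. Slc2a4, the insulin-responsive carrier of muscle and fat, fell (-2.50 ± 0.37), as did Slc2a12 (-4.22 ± 0.70), which had 0.179 ± 0.160 CPM in the knockout libraries and 3.52 ± 0.945 CPM in the wild type (SD, n = 3 each). Of 14 genes of pyruvate entry into mitochondria, some of which hold it back, 3 were higher and 1 lower, the carboxylase gene Pcx (-1.55 ± 0.29). These shares of 21.4% and 7.14% lie below the 28.7% and 25.1% of all genes. The phosphatase subunit gene Pdp1 (1.08 ± 0.22) and the carrier gene Mpc1 (0.76 ± 0.23) were among the higher ones. The other was Pdk4 (1.45 ± 0.48), a kinase gene that, like Pdk1, holds pyruvate back. Mpc1 was not called without knockout replicate 3 or any 1 wild type library (edgeR adjusted p = 0.0510 to 0.0708), and with the replicate block 3 of the 14 genes were lower. The higher count was 1 without wild type replicate 1 or 3, and the lower count 2 without knockout replicate 2 or 3.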

How the data were processed

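The authors deposited whole-number read counts per gene and FPKM values for the same 6 libraries. According to the submitters' processing notes, alignment used HISAT2 2.0.5 on mm10 and counting featureCounts 1.5.0-p3. No source used here gives the strand setting, the annotation release or the treatment of multiply matching reads. Each deposited FPKM value equals the count per kilobase, scaled to the library total, times a constant per library (0.854 to 1.12).

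Counts were fitted over all genes with edgeR 4.0.16 in R 4.3.3 (TMM factors, filter with minimum count 10 and minimum total 15, robust quasi-likelihood test, Benjamini-Hochberg adjustment over 16471 genes). Genes were called at an adjusted p under 0.05. Levels are CPM with TMM factors. Each SE was derived as |log2 fold change| divided by √F. Genes were compared with each other on FPKM only. For genes with only 1 to 3 counts in either group the ratio has an exact 95% interval, which covers counting error only. The test was also run on simulated counts with 200 changed genes, far fewer than the 8860 called in the data. Its outcome is not reported here.

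The members and lists were chosen with earlier results of these data known. Named were all members, Paxbp1, and from each further list the 2 called genes with the smallest adjusted p in each direction, except that some of these results are not reported here. From the marker lists, Pecam1, Cdh5, Kdr and genes without a count in the wild type were named after their values were seen. So were Pdk4 and Arnt from the further lists.

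Alternatives were scaling by RLE or library size, dropping the filter or asking for 1 CPM in 3 libraries, DESeq2 1.42.0, a replicate block, each library left out, both libraries numbered 1 left out, and limma 3.58.1 on log2(FPKM + 1) and log2(FPKM + 0.1) for genes with a mean FPKM of at least 0.5, and on log2(FPKM + 1) without that filter. Deviations from the group means correlated across genes at 0.23, 0.34 and 0.18 between same-numbered libraries, while other pairs ranged from -0.32 to 0.073. The numbers were therefore taken to pair the libraries, on the evidence of the data and not of the labels. Deviations within a group sum to 0, so these correlations are tied to each other, and the pairing was not tested. The main fit has no replicate block, so its p-values, SEs and counts of calls leave this pairing out. Block values are given where they change a call. Libraries of a group differed by more than sampling noise (chi-square over degrees of freedom 32.9 to 90.3).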

Additional observations from a re-analysis of the deposited data

How the results depend on the processing

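Under 16 alternatives the 41 gene models gave 656 values, of which 604 kept their direction and their side of the threshold. Of 28 called members 21 kept the call throughout, 7 lost it under at least 1 alternative and none changed sign. Of 13 members not called 6 were called under at least 1. Counts of higher glycolysis genes ran from 10 to 15 and of higher HIF pathway genes from 7 to 11 on leaving out 1 library, and lower HIF pathway genes from 1 to 2. The replicate block gave 15 higher glycolysis genes and 10 higher HIF pathway genes, with 5 and 1 lower, and changed no other call of a member than those given for Pfkp, Aldoa and Tpi1. Library-size scaling moved the median of all genes to -0.18, where Pdk1 stood at -0.013 and Paxbp1 at -0.024. On leaving out 1 library the log2 fold change ran from -0.34 to 0.10 for Egln1, -0.34 to 0.14 for Hk1, -0.24 to 0.11 for Pfkl and -0.25 to 0.33 for Paxbp1. Without both libraries numbered 1 it was 0.061 for Hk1, 0.000676 for Pfkl and -0.066 for Paxbp1. None of these genes was called. Family shares taken on CPM instead of FPKM changed, knockout minus wild type, by 1.59 points for Slc2a3, -29.1 for Hk2, 40.6 for Hk3, -6.29 for Pfkl, -3.59 for Pfkm, 6.43 for Ldha and -6.43 for Ldhb. On FPKM these were 0.78, -42.3, 55.2, 0.20, -7.33, 12.5 and -12.5, so the Pfkl share changed sign. Depth limits the rare carriers, Adm, Car9 and the upstream Aldoa model, whose lowest libraries had 3 to 32 counts.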

Other observations

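Of 9 genes of the pentose phosphate pathway, which makes NADPH and ribose, 3 were higher and 1 lower (33.3% and 11.1%, against 28.7% and 25.1% of all genes tested). Pgd, the gene of its second dehydrogenase, had 258, 359 and 352 CPM in the knockout libraries, against 93.0, 119 and 82.8 CPM in the wild type (log2 fold change 1.72 ± 0.25, edgeR adjusted p = 0.000163). H6pd, the form of the first dehydrogenase in the endoplasmic reticulum, rose as well (2.07 ± 0.32). Pgls, the lactonase gene between them, fell (-0.74 ± 0.24), but was not called without knockout replicates 1 or 3 or wild type replicates 2 or 3 (edgeR adjusted p = 0.0586 to 0.0905).

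Of 17 genes of glycogen turnover and gluconeogenesis tested out of 19, 7 were higher and the other 10 were not called. These 7 are 41.2%, against 28.7% higher and 25.1% lower among all genes tested. The higher count was 4 without knockout replicate 3 or wild type replicate 2, and the replicate block also called 2 lower. Gyg, the glycogenin gene that primes glycogen, had 26.0, 51.7 and 65.1 CPM in the knockout libraries, against 10.2, 8.80 and 12.5 CPM in the wild type (log2 fold change 2.18 ± 0.33, edgeR adjusted p = 0.000220). Pygm, the muscle-type glycogen phosphorylase gene, had 7.42, 4.38 and 4.34 CPM in the knockout libraries, against 1.86, 0.734 and 0.265 CPM in the wild type (2.49 ± 0.59, edgeR adjusted p = 0.00450). Skeletal muscle markers summed to 9.80 to 24.9 CPM in the knockout libraries and 6.15 to 7.52 CPM in the wild type, and macrophage markers to 9089 to 17170 CPM in the knockout libraries and 131 to 146 CPM in the wild type. Their part in these values was not tested.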
